A study of Homo sapiens with 2 samples.

Results

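QGP1 is an established human cell line from a pancreatic neuroendocrine tumour. The study profiled QGP1 cells with high aldehyde dehydrogenase (ALDH) activity, isolated by fluorescence-activated cell sorting, beside control QGP1 cells, with 1 array in each group. The sources used here do not say how the control cells were handled, which substrate the sort used or how many cultures were grown, and they name no other treatment or genotype for either group. The extraction protocol speaks of tissue specimens, although the source of both samples is given as the cell line. The results below concern 10 aldehyde dehydrogenase genes outside the ALDH1A group: ALDH2, ALDH1B1, ALDH3A1, ALDH3A2, ALDH3B1, ALDH3B2, ALDH5A1, ALDH7A1, ALDH9A1 and ALDH16A1. They were taken by name, and 19 probe sets carried 1 of these symbols alone in the platform annotation, out of 41091 probe sets with a single symbol for 19775 genes. All 10 genes had a probe set, and no filter on low levels was applied.

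Aldehyde dehydrogenases oxidise aldehydes to carboxylic acids with NAD or NADP as the electron acceptor. Sorting on ALDH activity enriches cells that convert a fluorescent aldehyde substrate, and the ALDH1A enzymes, which make retinoic acid, are the ones most often linked to that signal. Most of the 10 genes described here are known for other substrates: acetaldehyde in mitochondria, fatty and lipid peroxidation aldehydes, and aldehydes from GABA, lysine and the carnitine precursor. The activity of each enzyme was not measured here, only the level of its transcript.

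Values are RMA levels on the log2 scale, so a difference of 1 is 2-fold, and every difference is ALDH high minus control. With a single array in each group there was no replicate check and no p-value could be given. A gene was read from its probe set with the highest mean level over both arrays, called its main probe set, and the others are given beside it. Affymetrix IDs that end in _s_at or _x_at mark probe sets that can bind more than 1 transcript. Over the 10523 genes with several probe sets, the differences of probe sets of the same gene had a pooled SD of 0.23. That SD describes disagreement between probe sets and does not cover the spread between cultures or sorts. The arrays were on a common scale, with medians of 5.68 for ALDH high and 5.68 for control over 54613 probe sets, and the median difference over all genes was -0.01. In RNA pooled from many cells, fewer cells with a transcript and less transcript per cell cannot be told apart.

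ALDH2 was the 1 member with a large difference, 4.08-fold lower in ALDH-high cells, while 6 of the 10 members stayed within 0.2 on the log2 scale. ALDH16A1 was 1.53-fold higher, ALDH3B2 1.56-fold lower and ALDH3A1 1.31-fold higher. At 2-fold, 1 of 10 members was lower and 0 were higher, and over all genes these shares were 1.23% and 0.465%. The members were chosen with earlier results of these data known, so the comparison with all genes is not a test. At 1.5-fold, 2 members were lower and 1 was higher, against 4.21% and 2.61% of all genes. The median difference of the members was -0.05. Below 0 were 7 members, above 0 were 2 and ALDH7A1 was equal on both arrays, while 50.3% of all genes lay below 0. A difference within 0.2 was found for 58.9% of all genes, so the steadiness of 6 members is what most genes on these arrays showed. The plot of levels on both arrays shows each probe set of the 10 genes.

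**Figure D1:**
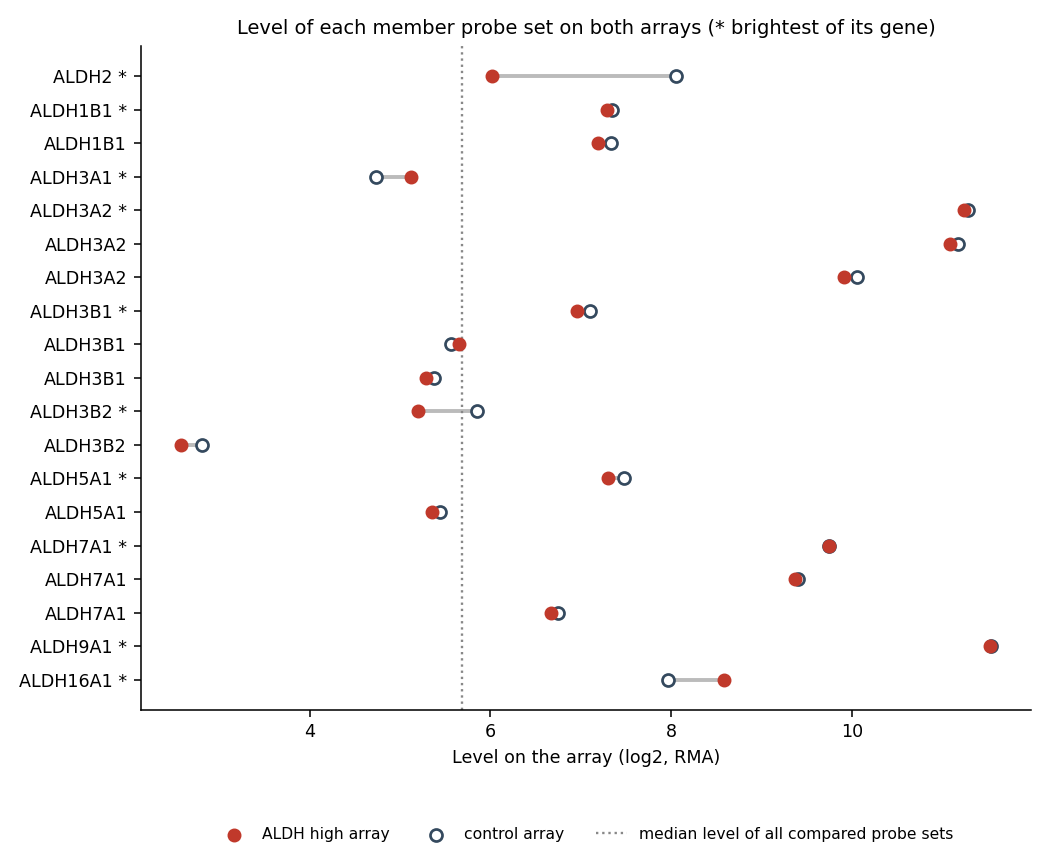
Level (log2, RMA) of each of the 19 member probe sets on the ALDH-high array (filled) and the control array (open), joined by a grey line, with genes down the page and the main probe set of each gene starred. ALDH2 has the widest gap (6.02 against 8.05), and most other pairs of points nearly coincide.

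ALDH2 is the mitochondrial enzyme that removes acetaldehyde made from ethanol and also oxidises the lipid peroxidation product 4-hydroxynonenal. Its level was 6.02 in ALDH-high cells and 8.05 in control cells, a difference of -2.03. On a linear scale these levels were 64.9 and 265. Only 25 genes had a lower difference, which placed ALDH2 at rank 26 from the bottom of 19775. The ALDH-high level exceeded that of 55.4% of the probe sets on its array and the control level that of 77.5% on its own, so both stood above their array medians. ALDH2 was represented by a single probe set with no shared target in its name, so no second probe set bears on the value. The deposited table holds no detection calls, and the fold shrinks when a constant is added to dim signals: with a pseudocount of 64 the difference was -1.35, still over 2-fold.

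ALDH1B1 is the mitochondrial relative of ALDH2 and takes acetaldehyde and retinaldehyde; in the mouse it marks progenitor cells of the pancreas. It was nearly level, with 7.29 in ALDH-high cells and 7.35 in control cells. Its second probe set read 7.19 in ALDH-high cells and 7.33 in control cells, so the differences were -0.05 and -0.15. Both have IDs that mark possible shared targets. The 2 mitochondrial acetaldehyde enzymes therefore had unlike differences on these arrays, -2.03 for ALDH2 and at most 0.15 in size for ALDH1B1.

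The ALDH3 genes encode enzymes for fatty, aromatic and lipid peroxidation aldehydes, and their differences had unlike signs. ALDH3A2, the fatty aldehyde dehydrogenase of the endoplasmic reticulum whose loss causes Sjögren-Larsson syndrome, read 11.24 in ALDH-high cells and 11.29 in control cells. Its other probe sets read 11.09 and 9.92 in ALDH-high cells, against 11.17 and 10.06 in control cells. The 3 differences, -0.05, -0.09 and -0.14, had the same sign and were all smaller than the pooled SD.

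ALDH3A1, a cytosolic enzyme abundant in the cornea and a known target of the aryl hydrocarbon receptor, read 5.12 in ALDH-high cells and 4.73 in control cells. The difference of 0.38 rests on 1 probe set that lay below the array median in each group. Of all genes, 92.8% had a lower difference than ALDH3A1. With a pseudocount of 64 its difference was 0.12, so its size depends on how dim signal is treated.

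ALDH3B1, which oxidises lipid peroxidation aldehydes at membranes, read 6.96 in ALDH-high cells and 7.10 in control cells on its main probe set. Its other probe sets, both below the array median, differed by 0.09 and -0.09, so its 3 probe sets did not share a sign. ALDH3B2, the closest relative of ALDH3B1, read 5.20 in ALDH-high cells and 5.85 in control cells, a difference of -0.64. The second ALDH3B2 probe set read 2.58 in ALDH-high cells and 2.81 in control cells, near the bottom of each array, and differed by -0.24. Both ALDH3B2 probe sets have IDs of that kind as well, and as the mean of both the difference was -0.44. With a pseudocount of 64 it was -0.27.

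The 4 ALDH3 genes lie as neighbouring pairs in the human genome. In the RefSeq gene table of assembly GRCh38.p14, ALDH3A1 and ALDH3A2 lie on chromosome 17 with 1 protein-coding gene, SLC47A2, between them. ALDH3B1 and ALDH3B2 lie on chromosome 11 with 2 between them. Within each pair, 1 gene stayed within 0.2 (ALDH3A2 and ALDH3B1) and the other went beyond the pooled SD (ALDH3A1 at 0.38 and ALDH3B2 at -0.64). Over all genes, 58.9% stayed within 0.2 and 35.7% went beyond the pooled SD. How often other pairs of genes split in this way was not counted, so the split is not read as a trait of these pairs.

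The 3 members of amine and amino acid breakdown differed by at most 0.17 in size on every probe set. ALDH5A1, the succinic semialdehyde dehydrogenase that completes GABA breakdown, read 7.31 in ALDH-high cells and 7.48 in control cells, and its dimmer probe set 5.35 and 5.45. The differences were -0.17 and -0.09. ALDH7A1, also called antiquitin, acts in lysine breakdown, and its loss causes pyridoxine-dependent epilepsy. Its main probe set read 9.75 in ALDH-high cells and the identical value in control cells. The other ALDH7A1 probe sets read 9.38 and 6.68 in ALDH-high cells, against 9.41 and 6.74 in control cells, so that its 3 differences spanned 0.07. ALDH9A1, which oxidises trimethylaminobutyraldehyde on the way to carnitine, read 11.53 in ALDH-high cells and 11.54 in control cells on its only probe set.

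ALDH16A1 differs from the rest of the family in that the human protein lacks the catalytic cysteine. It was the member with the largest positive difference, with 8.58 in ALDH-high cells and 7.97 in control cells. The difference of 0.62 ranked 448 from the top of 19775 genes. On a linear scale the levels were 383 and 249.9. ALDH16A1 had 1 probe set, above the array median in each group, and with a pseudocount of 64 its difference was 0.51.

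**Figure D2:**
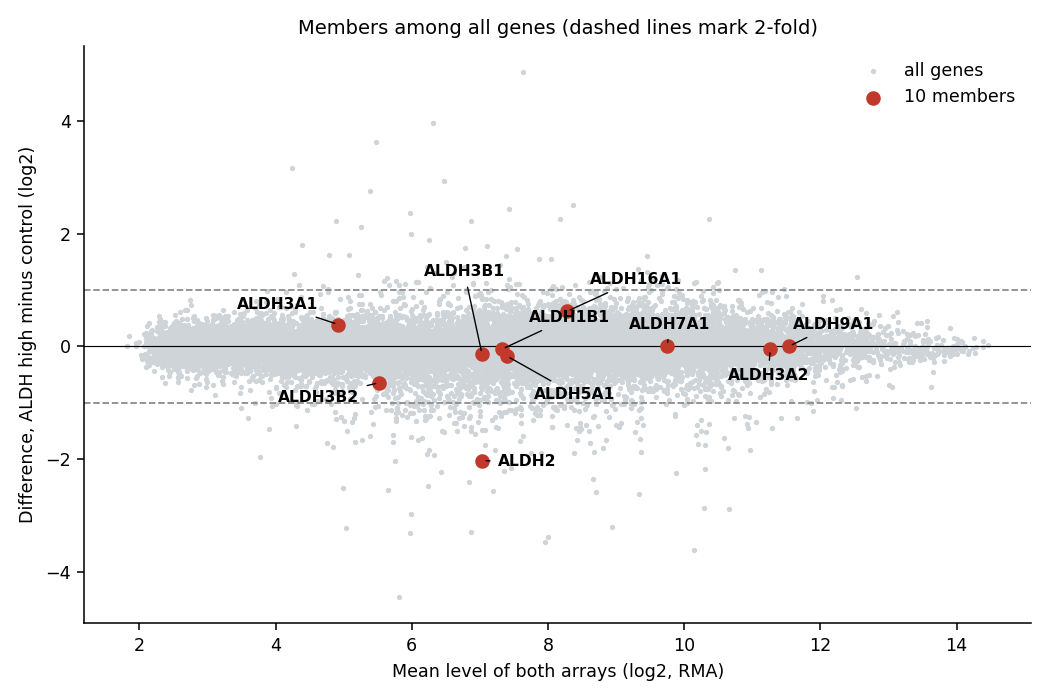
Difference (log2, ALDH high minus control) against the mean level of both arrays (log2, RMA) for 19775 genes in grey, with the 10 members in red. ALDH2 at -2.03 lies apart from the bulk, and the remaining members lie between the 2-fold lines, from -0.64 to 0.62.

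Probe sets of the same member mostly had the same sign. Of the 6 members with several, all probe sets lay below 0 in 4 (ALDH1B1, ALDH3A2, ALDH3B2 and ALDH5A1). The range of differences within a gene was from 0.07 for ALDH7A1 to 0.41 for ALDH3B2. Over all 19 probe sets, 15 were lower, 3 higher and 1 equal, and 14 lay within 0.2. Of all genes, read from main probe sets, 50.3% lay below 0 and 58.9% within 0.2. The shares over all probe sets, and of all genes with probe sets of the same sign, were not counted. The member counts are therefore not read as a trait of the members. The 4 members with a single probe set were ALDH2, ALDH3A1, ALDH9A1 and ALDH16A1. A difference above the pooled SD in size was found for 4 members (ALDH2, ALDH3A1, ALDH3B2 and ALDH16A1) and for 35.7% of all genes. Of these 4, only ALDH3B2 had a second probe set.

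Promoter letters are a feature that the choice of members did not use. RefSeq promoter windows of GRCh38.p14, from 250 bases before to 50 after a transcript start, were held for 6 members (ALDH1B1, ALDH3A2, ALDH3B1, ALDH5A1, ALDH7A1 and ALDH9A1), 8 windows in all, and those of ALDH2, ALDH3A1, ALDH3B2 and ALDH16A1 were not used here. The 6 are also the members with a difference within 0.2. The GC box GGGCGG, the core letters bound by SP1, was found in 6 of the 8 windows, at least 1 for each of the 6 genes, against 45.0% of all 35116 windows. The CCAAT box was found in 3 of 8 windows (34.6% of all windows), the aryl hydrocarbon receptor core GCGTG in 2 of 8 (36.5%) and the TATA box TATAAA in 0 of 8 (11.5%). GC content ran from 55.0% to 73.3% in the member windows, with a median of 58.7% over all windows. Matches were counted on both strands, and overlapping matches were counted each. A match describes letters in a window and is not a binding site. The GC box letters occur often in GC-rich sequence, and these windows were not set against others of equal GC content.

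The 3 windows below belong to members with differences of 0.15 or less in size on every probe set, and are written 5′ to 3′ on the strand of the gene with GC box and CCAAT letters, on either strand, in capitals. ALDH1B1 lies at chr9:38392452-38392751 on the plus strand, ALDH7A1 at chr5:126595170-126595469 on the minus strand and ALDH9A1 at chr1:165698513-165698812 on the minus strand, all in GRCh38.p14. ALDH1B1 and ALDH7A1 each hold 3 GC boxes and 1 CCAAT box, and ALDH9A1 holds 2 GC boxes on the opposite strand, inside a repeated stretch of its window.
ALDH1B1: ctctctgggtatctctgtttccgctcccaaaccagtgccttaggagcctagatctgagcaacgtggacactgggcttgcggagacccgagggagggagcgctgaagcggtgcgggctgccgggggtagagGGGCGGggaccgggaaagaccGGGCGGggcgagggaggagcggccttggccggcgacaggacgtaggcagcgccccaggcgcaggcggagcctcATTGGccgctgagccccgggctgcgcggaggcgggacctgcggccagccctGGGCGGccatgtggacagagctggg
ALDH7A1: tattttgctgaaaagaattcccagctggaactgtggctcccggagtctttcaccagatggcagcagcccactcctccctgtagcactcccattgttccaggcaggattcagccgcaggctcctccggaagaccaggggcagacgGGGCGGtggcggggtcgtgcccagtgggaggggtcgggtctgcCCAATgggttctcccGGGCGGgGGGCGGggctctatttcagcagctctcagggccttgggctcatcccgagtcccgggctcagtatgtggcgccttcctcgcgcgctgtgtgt
ALDH9A1: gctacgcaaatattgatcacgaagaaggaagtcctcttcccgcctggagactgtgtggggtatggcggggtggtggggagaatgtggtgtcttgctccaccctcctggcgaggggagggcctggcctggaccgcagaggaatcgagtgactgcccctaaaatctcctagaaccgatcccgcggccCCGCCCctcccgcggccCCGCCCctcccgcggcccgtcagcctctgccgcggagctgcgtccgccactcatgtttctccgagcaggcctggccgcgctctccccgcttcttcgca

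Set beside the 9 other genes of the family, the 10 members held neither the highest nor the lowest difference. Of those 9, the mitochondrial folate enzyme ALDH1L2 was 5.91-fold lower (5.91 against 8.47) and ALDH1A3, which makes retinoic acid, 3.42-fold higher (7.99 against 6.21). The other 7 were ALDH1A1, ALDH1A2, ALDH1L1, ALDH4A1, ALDH6A1, ALDH8A1 and ALDH18A1. Their main probe sets ranged from -0.40 for ALDH6A1 to -0.11 for ALDH8A1. The other ALDH6A1 probe sets differed by -0.04, -0.06, -0.13 and 0. ALDH1A1 read 11.78 in ALDH-high cells and 12.13 in control cells, a difference of -0.35 on its only probe set. ALDH2 was thus 1 of 2 family genes over 2-fold lower. Over all genes, 1.23% were over 2-fold lower and 0.465% over 2-fold higher, and the family counts were not tested against these shares. For ALDH1L2 the other probe sets differed by -1.04 and -0.28, and the second ALDH1A3 probe set by 0.03 at a dim level (4.12 against 4.09), whereas ALDH2 had none to compare.

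**Figure D3:**
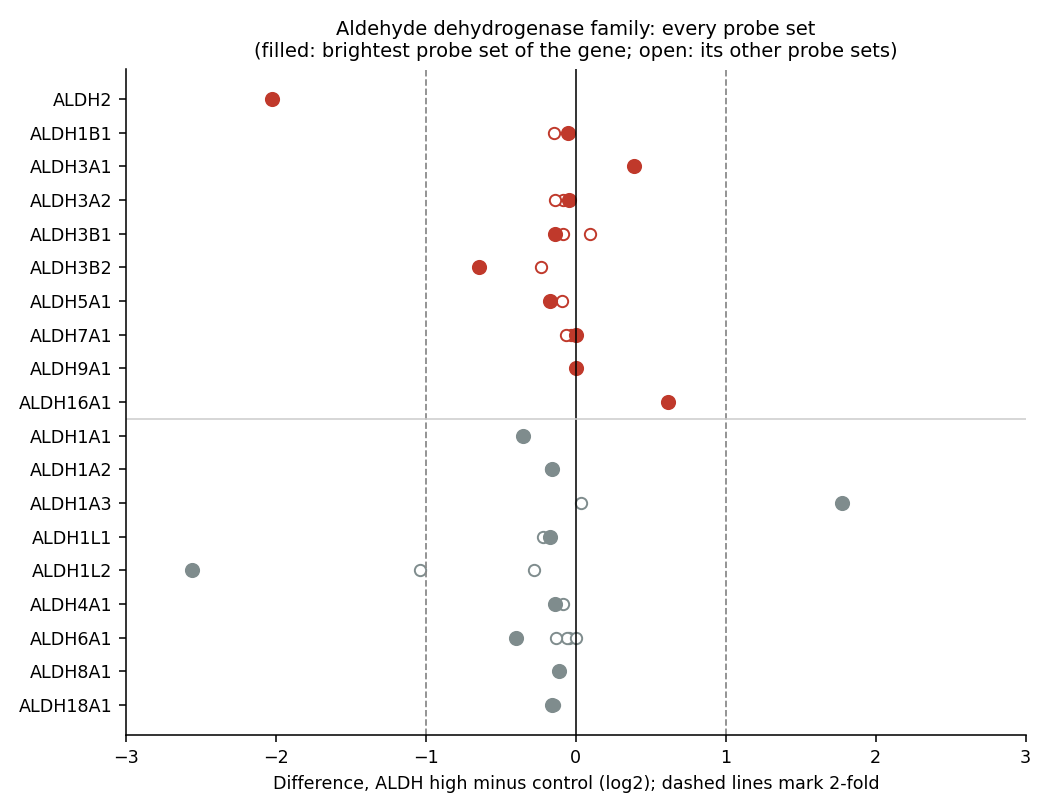
Difference (log2, ALDH high minus control) of every probe set of the 10 members (red) and the 9 other family genes (grey), with the main probe set filled, other probe sets open and dashed lines at 2-fold. ALDH2 and ALDH1L2 lie left of the 2-fold line at -2.03 and -2.56, and ALDH1A3 right of it at 1.77.

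Lists of enzymes that make or use the same aldehydes were read against the shares of all genes past 1.5-fold, 4.21% lower and 2.61% higher, and the lists were chosen with earlier results of these data known. Around ALDH2, 0 of 12 measured genes of alcohol and acetaldehyde metabolism passed 1.5-fold, and their median was -0.17. The largest differences were those of catalase, CAT, which can also oxidise ethanol (9.61 in ALDH-high cells and 10.12 in control cells, -0.51), and of ACSS2, which activates acetate (6.60 in ALDH-high cells and 6.97 in control cells, -0.36). All 3 CAT probe sets lay between -0.51 and -0.38. Around ALDH3A2, 0 of 7 measured genes of fatty aldehyde and sphingolipid metabolism passed 1.5-fold, with a median of -0.09. SPHK1, the kinase that makes sphingosine 1-phosphate, differed by 0.44 at a dim level. FAR2, which reduces fatty acyl-CoA to fatty alcohol, differed by -0.26 on its main probe set. Its other probe sets differed by -0.15 and, at a dim level, 0.18.

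Among 13 genes of GABA, polyamine and carnitine metabolism, 1 was over 2-fold lower and 3 were over 1.5-fold lower, with a median of -0.08. SAT1, which acetylates spermidine and spermine for breakdown, was 2.75-fold lower, with 10.55 in ALDH-high cells and 12.01 in control cells. Its 3 probe sets had differences between -1.67 and -1.46. MAOB, a mitochondrial amine oxidase that produces aldehydes, was 1.91-fold lower (5.64 against 6.57), though its dim probe sets differed by -0.09 each. SMOX, the spermine oxidase, which releases an aminoaldehyde, was 1.54-fold lower (7.06 against 7.68), with its other probe sets at -0.53 and 0. On main probe sets, the other oxidases of this list did not pass 1.5-fold: PAOX differed by 0.45, MAOA by -0.43 and AOC1 by 0.01. The 4 PAOX probe sets did not share a sign and ran from -0.61, which is past 1.5-fold, to 0.45. The members that act on aldehydes of these pathways, ALDH5A1 and ALDH9A1, were at -0.17 and -0.0024. Around ALDH7A1, 0 of 8 genes of lysine and choline breakdown passed 1.5-fold, with a median of -0.08. GCDH, the glutaryl-CoA dehydrogenase of lysine breakdown, differed by 0.54 and DMGDH, the dimethylglycine dehydrogenase of choline breakdown, by -0.45 at a dim level.

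Genes around the aryl hydrocarbon receptor, of which ALDH3A1 is a known target, held the largest positive differences among the 5 lists outside the family. Of 9 such genes, 2 were over 2-fold and 3 over 1.5-fold higher, 0 were lower at that size, and they had a median of 0.14. Over all genes, 0.465% were over 2-fold and 2.61% over 1.5-fold higher, and the list was chosen with earlier results known. CYP1B1, an oxidase induced by the receptor, was 2.46-fold higher (6.98 in ALDH-high cells and 5.68 in control cells), with its 4 probe sets between 0.36 and 1.62. CYP1A1, the oxidase most used as a readout of the receptor, was 2.19-fold higher (9.16 against 8.03). AHRR, the receptor's repressor, was 1.77-fold higher (8.78 against 7.96). The receptor AHR itself differed by -0.48 (9.57 against 10.05) and its partner ARNT by 0.13. The 7 ARNT probe sets did not share a sign and ran from -0.51 to 0.13. Other targets differed less: CYP1A2 by -0.16, NQO1 by 0.04, TIPARP by 0.24 and UGT1A6 by 0.14. Each of CYP1A1, AHRR and AHR had 1 probe set. ALDH3A1, at 0.38, was not over 1.5-fold, and a part of the receptor in its difference was not tested.

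**Figure D4:**
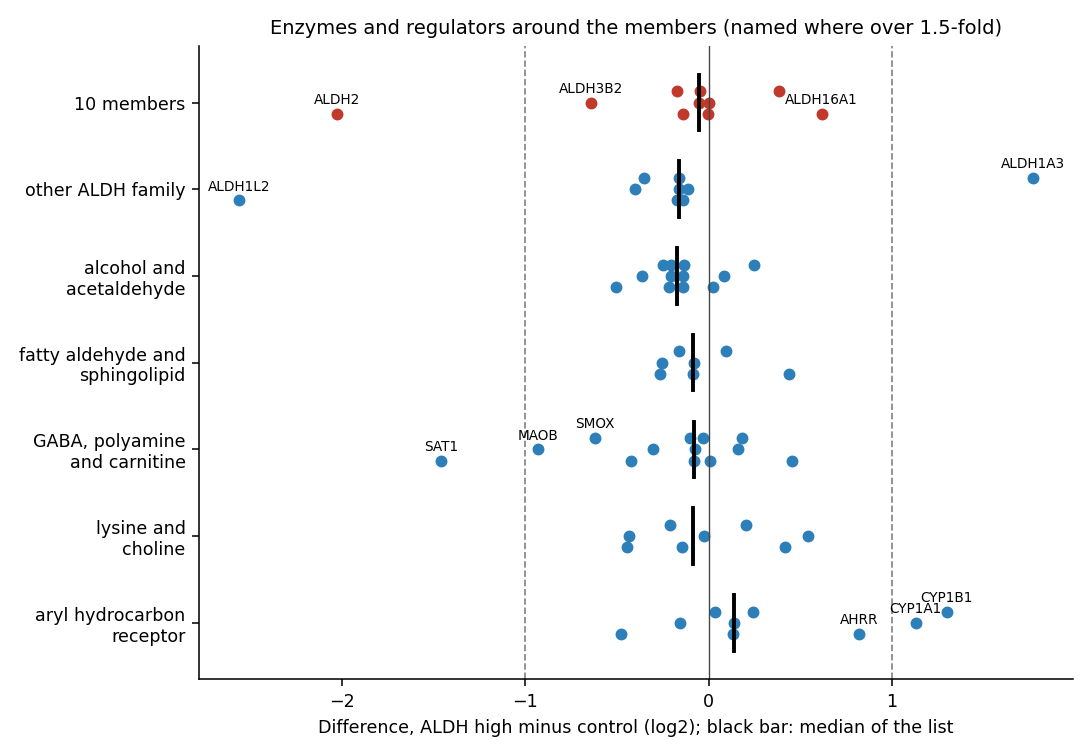
Difference (log2, ALDH high minus control) of each gene in the 10 members and 6 lists of related genes, 1 point for each gene, with black bars at the list medians, dashed lines at 2-fold and names for genes over 1.5-fold. ALDH1L2, ALDH2 and SAT1 lie left of the 2-fold line, and ALDH1A3, CYP1B1 and CYP1A1 right of it.

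Markers of the line's identity and of other cell types were read as lists, against 63.4% of all genes at or above the median level. All 9 measured neuroendocrine markers stood at or above it, among them CHGB (12.60 in ALDH-high cells and 12.71 in control cells) and SCG2 (13.69 and 13.77). Their median difference was -0.08 and their summed linear levels were 34222 in ALDH-high cells and 34259 in control cells. DDC was the 1 such marker over 1.5-fold, at 1.60-fold higher. The same level was reached by 1 of 6 acinar, 6 of 7 ductal, 2 of 8 fibroblast and stellate, 1 of 6 endothelial and 2 of 5 leukocyte markers, with list medians from -0.18 for leukocyte to -0.09 for ductal markers.

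Of the 7 ductal markers, 5 were lower and 2 higher. TFF1 was 2.39-fold lower (10.31 in ALDH-high cells and 11.57 in control cells), SOX9 1.54-fold lower and KRT19 1.51-fold higher. KRT7 read 11.69 in ALDH-high cells and 11.67 in control cells. CFTR differed by -0.36 at a dim level, MUC1 by -0.09 and SPP1 by -0.05. The second KRT19 probe set, also dim, differed by -0.08. The summed linear levels of the ductal markers were 7556 in ALDH-high cells and 9240 in control cells. Of 6 acinar markers, 4 were lower and 2 higher. The acinar factor BHLHA15 differed by -0.84 (7.43 against 8.27) and CELA3A by -0.25, while CPB1 differed by 0.44 and CTRC by 0.05. All but BHLHA15 lay below the median level. Of the 5 leukocyte markers, 3 were lower and 2 higher. LYZ and CD14 were over 2-fold lower at levels below the median, and the second LYZ probe set differed by -0.42. PTPRC, also dim, differed by 0.22, with its 5 probe sets between -0.12 and 0.72. In ALDH-high and control cells, ITGAM read 6.12 and 6.04 and CD3E 5.65 and 5.83. The summed linear level of the leukocyte markers was 171 in ALDH-high cells and 224 in control cells. On main probe sets, no fibroblast or endothelial marker passed 1.5-fold. Of the 8 fibroblast and stellate markers, 5 were lower, 2 were higher and PDGFRB was equal on both arrays. Of the 6 endothelial markers, 4 were lower and 2 higher. Below the median level, FAP differed by -0.43, ACTA2 by -0.42, COL3A1 by 0.31 and ESAM by 0.37. The COL3A1 probe sets did not share a sign. In ALDH-high and control cells, COL1A1 read 7.46 and 7.74, DCN 5.83 and 5.91, PECAM1 6.05 and 6.17 and TEK 5.62 and 5.58. Over all probe sets, COL1A1 ranged from -0.72 to 0.08 and PECAM1 from -0.76 to 0.01, so each passed 1.5-fold on another probe set. No RMA level is 0. The part of other cells in the member differences was not tested.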

How the data were processed

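Each of the 2 samples was hybridised to 1 Affymetrix expression array with a 3' in vitro transcription labelling kit, per the labels' protocols. The authors deposited log2 levels of probe sets, and the submitters' processing notes name RMA, which corrects background, quantile-normalises the arrays and condenses the probes of each probe set. Not given in the sources used here are its version and the set of arrays it normalised. Quantile normalisation makes levels relative, so a change in total RNA per cell cannot be seen. Of 54675 probe sets, 62 controls were left out.

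Symbols came from GEO's platform annotation, and probe sets with several symbols (1801) were left out. Probe sets ending in _s_at or _x_at are open to shared targets. A fold of 2, the threshold of the series description, and a fold of 1.5 were applied to log2 differences, with no test, and compared with all genes. All family genes are named, and in other lists those over 1.5-fold, up to 4, and at least the 2 largest, while marker lists give the 2 with the largest levels. The other genes named of these lists were added after their values were seen. The members and lists were chosen with earlier results of these data known. The fold step was tested on simulated data whose only noise was the pooled SD between probe sets. That test cannot show how far the folds would vary between cultures or sorts. Python 3.11.15, numpy 2.4.6 and pandas 2.3.3 were used. The 10 alternatives covered probe set choice, pseudocount, level filter, scaling and threshold. The number of arrays limits the precision.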

Additional observations from a re-analysis of the deposited data

How the results depend on the processing

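ALDH2 stayed the 1 member over 2-fold lower, and 0 members were over 2-fold higher, under the 9 alternatives that kept the 2-fold threshold, among them the mean or median of probe sets, the exclusion of shared-target probe sets (7 members left), a level filter (8 members left), pseudocounts of 16 and 64, and both rescalings. At 1.5-fold the counts were 2 lower and 1 higher. Of 85 values of single members, 81 moved by less than the pooled SD of 0.23. The other 4 came from pseudocounts: ALDH2 was at -1.80 with 16 and -1.35 with 64, and with 64 ALDH3A1 was at 0.12 and ALDH3B2 at -0.27. The sign changed in 5 values, 4 of ALDH7A1, which was at 0, and 1 of ALDH9A1, all under 0.04 in size. The median of the members ranged from -0.09 to 0. No paired analysis was possible because each group had 1 array. Detection calls were not used here, and the main probe sets of ALDH3A1 and ALDH3B2 had mean levels below the median.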

Other observations

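The table held 2 further probe sets named for transcripts antisense to family genes. ALDH1L1-AS2 read 6.24 in ALDH-high cells and 6.26 in control cells, and ALDH1A2-AS1 read 2.68 in ALDH-high cells and 2.48 in control cells, dim on both arrays. Neither passed 1.5-fold.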
